A study of Mus musculus with 18 samples.

Results

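The genes examined here encode proteins that steer growing axons and proteins that join cells to each other: semaphorins and their plexin receptors, members of the slit and netrin systems, the giant Fat and Celsr cadherins, smaller cadherins and protocadherins, and a neuroligin. They were chosen as the genes whose symbol begins Sema, Plxn, Robo, Slit and a digit, Unc5, Cdh, Pcdh, Celsr, Dchs, Nrxn, Nlgn or Cntn, or is Fat1 to Fat4, in lists that pair UCSC identifiers with symbols. Only 3379 of the 12241 genes in the 2 deposited tables have a symbol in those lists, and 25 genes met the rule. No symbol beginning Dchs, Nrxn or Cntn, and no Fat2, was found among them. The mesoderm table (12064 genes) holds 22 of the 25 genes and the table of neural tube and forelimb (11231 genes) also holds 22, with 19 in both. *Cdh22*, *Cdhr4* and *Celsr3* are in the mesoderm table only, and *Pcdhb20*, *Pcdhb22* and *Unc5d* in the other table only.

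The lists hold mainly genes that the study had called by translational efficiency (TE), the amount of ribosome footprints of a gene relative to its mRNA. 13 of the genes come from the list made on the mesoderm and 17 from the list made on neural tube and forelimb, with 5 on both (*Celsr1*, *Celsr2*, *Plxna3*, *Plxnb1* and *Sema4g*). Where only the list made on the same tissue brought a gene in, its values are therefore a description with no p-value. Tests are reported for genes that a list made on the other tissue had brought in: 14 genes for TE in the mesoderm and 10 genes for every comparison in neural tube and forelimb. The 5 genes on both lists are among the 14 and among the 10. Their TE had also entered their choice, so their TE tests are not independent of it. The TE change between NT and FL is made of RPF and mRNA changes, so tests of those are not fully independent either.

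Mouse embryos at E11.5 were used, with 3 replicates of Ribo-Seq and 3 of RNA-Seq for each of 3 tissues, 18 libraries in all. Mesoderm consisted of GFP+ cells sorted from *R26-mTmG flox/+* embryos that carry the *Tg(T-cre)1LWD/J* transgene. In these embryos T-Cre marks descendants of the primitive streak by switching a membrane reporter from Tomato to GFP, so it mixes somite, limb and kidney lineages. FVB embryos, which carry no reporter, were the source of the microdissected neural tube (NT) and forelimb buds (FL). Both tissues were dissected from the same embryos, and the methods describe dividing mesoderm and neural tube cells between Ribo-Seq and RNA-Seq, but the sources used here do not say that equal replicate numbers mark the same embryos. All cells were handled in cycloheximide, which stalls ribosomes on mRNA, and how many embryos made up a replicate is not given in the sources used here. Ribo-Seq counts ribosome-protected fragments (RPFs), the stretches of mRNA shielded by a ribosome, and RNA-Seq counts fragments of polyA mRNA.

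As background, axons read secreted cues such as class 3 semaphorins, slits and netrins through plexin, Robo and Unc5 receptors, and the balance of attraction and repulsion sets their path. Limb buds and somites make several of these cues at the stage when motor and sensory axons reach them. Cadherins bind cells through calcium-dependent repeats, the Fat and Celsr families also align cells within a tissue (planar polarity), and neuroligins sit at the receiving side of synapses.

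Between 24555103 and 50136443 reads per RNA-Seq library and between 11000015 and 31993255 per Ribo-Seq library fell on the genes of the tables. FL Ribo-Seq replicate 3 stood apart: Pearson's r across genes, on log2 values, was 0.886 and 0.896 with the other 2 FL Ribo-Seq libraries, which had r = 0.976 with each other. It was also closer to the FL RNA-Seq libraries (0.901 to 0.908) than the other 2 were (0.728 to 0.74). For 20 of the 22 genes in the table, this library held more RPFs than both of the others, which was so for 43.0% of all genes, and the median ratio to their mean was 2.085 against 0.96 for all genes. Most counts of these genes that use FL Ribo-Seq, and the changes fitted to it, are therefore given with and without this library. Markers of other cell types were checked where they had an identifier, which no endothelial marker had. The summed mRNA of 5 neural markers (*Dcx*, *Fabp7*, *Lhx2*, *Ncam1*, *Nes*) was 31930 to 48973 normalized reads (read counts divided by the size of the library) in NT and 8409 to 10189 in FL. That of 3 limb and somite markers was 10152 to 13619 in FL and 878 to 1651 in NT. Within the neural sum of FL, *Nes* held 4325 to 5266 reads, *Ncam1* 1939 to 2609 and *Lhx2* 1745 to 2124. *Dcx* held 301 to 345 there and *Fabp7* 24.8 to 102.5. In the sorted mesoderm the neural markers summed to 9944 to 12825 normalized mRNA reads and none was at 0. *Nes* held 6140 to 8412 of these, *Dcx* 238 to 361 and *Fabp7* 106.6 to 125.5. *Epcam*, the single epithelial marker with an identifier, held 537 to 690 mRNA reads in FL and 96 to 659 in NT. The single marker of macrophages, *Csf1r*, held 391 to 467 in FL and 461 to 608 in NT. The part of these other cells in the results below was not tested.

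Translation starts in these mRNAs can be set side by side. The sequences printed run from 9 bases before to 6 bases after the start codon, which is in capitals, and were read from the GENCODE M21 transcript with the longest coding sequence (GRCm38), which can differ from the isoform the authors counted. They are shown because a purine at position -3 and a G at position 4, counted from the A of ATG as 1, are the parts of the Kozak context known to matter most for start recognition. The first pair belongs to the class 3 semaphorins, the genes with the highest TE here. *Sema3a* lies on the plus strand at chr5:13125414-13602565, *Sema3c* on the plus strand at chr5:17574281-17730268, *Sema4g* on the plus strand at chr19:44989101-45003397, *Cdh24* on the minus strand at chr14:54631231-54641364, *Plxnb1* on the plus strand at chr9:109095389-109119917 and *Robo3* on the minus strand at chr9:37415669-37433246.
Sema3a: gtctgcagcATGggctgg
Sema3c: tcagaagaaATGgcattc
Sema4g: cgcaggaagATGtggggg
Cdh24: attacaaacATGtggggc
Plxnb1: caggtgaccATGtctgtc
Robo3: ggctgcgctATGctgcgc
Of the 25 genes, 22 had at least 9 bases of 5′ UTR before the start. All 22 carried a purine at position -3 (84.0% of 20098 coding genes with such a context), and 8 carried G at position 4 (49.3% of those coding genes): *Cdhr4*, *Fat3*, *Pcdhb20*, *Sema3a*, *Sema3c*, *Sema6d*, *Slit1* and *Unc5d*. At least 1 upstream ATG was present in the 5′ UTR of 17 of 25 genes (68.0%), against 50.5% of 21457 coding genes. *Celsr3* and *Fat1* have an annotated 5′ UTR of 0 nt and *Celsr1* one of 7 nt, and they count as having none. The median 5′ UTR was 294 nt for the 25 genes and 153 nt for the coding genes. The coding sequences were long, with a median of 3222 nt and a range of 2256 to 14946 nt, and all 25 exceeded the 1191 nt median of coding genes. Among 3153 genes of the lists with such a transcript, 58.3% had an upstream ATG and the median coding sequence was 1845 nt. These counts describe the letters of the annotated transcripts, and their relation to TE was not tested.

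In the mesoderm, log2 TE lay below the median of all genes for 19 of the 22 genes measured, and *Sema3a*, *Sema3c* and *Pcdh7* lay above it. Log2 TE is given relative to the median of all genes of a tissue, and a gene was called TE-low when limma gave a Benjamini-Hochberg adjusted p under 0.05 and TE lay at least 3-fold below that median. 11 of the 22 genes were TE-low, where 10.9% of all genes were, and 0 were TE-high, where 1.17% were. The mesoderm list held all 11 and had alone brought in 7 of them, so nothing is read from that count. Among the 14 genes that the NT and FL list brought in, 4 were TE-low: *Celsr1*, *Plxna3*, *Plxnb1* and *Sema4g*. The same list had 465 TE-low genes of 1943 (23.9%), and a median log2 TE of -0.42 beside -0.83 for the 14 genes. The 4 TE-low genes among the 14 are all on the mesoderm list too, so nothing is read from their count either. The p-values printed below for them and for *Celsr2*, which is also on that list, describe values that had entered their choice.

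**Figure D1:**
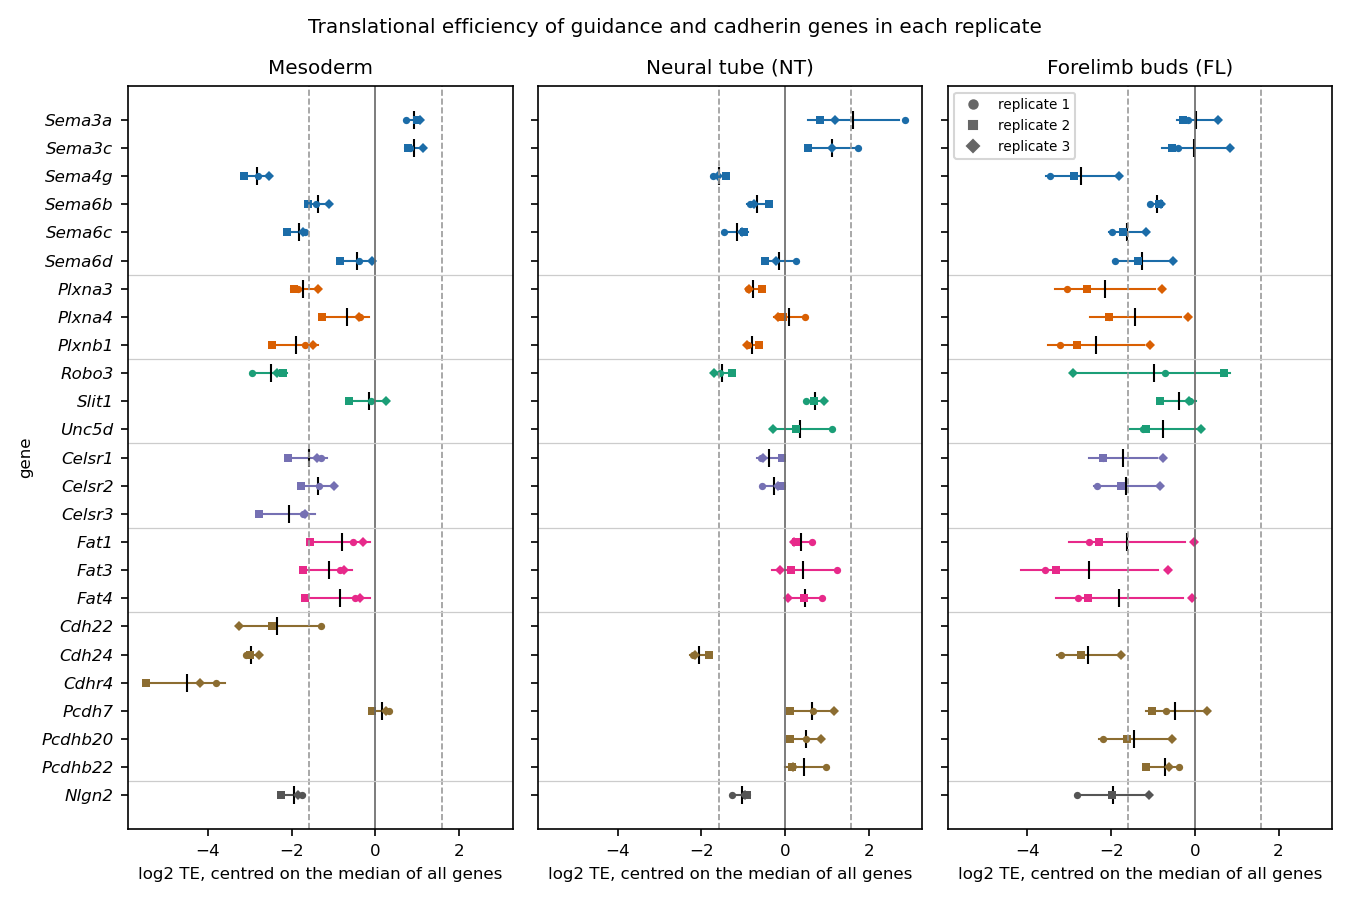
Log2 TE of each gene, relative to the median of all genes of the tissue (solid line at 0), in mesoderm, NT and FL. Symbols are replicates (Ribo-Seq minus RNA-Seq of the same number), the tick and bar are the mean and SD of 3, dashed lines mark 3-fold, and FL replicate 3 lies to the right of the other 2 for most genes.

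Among the semaphorins, ligands that are secreted (class 3) or held in the membrane (classes 4 and 6), the secreted pair stood above the median and the membrane-bound members below it. *Sema3a*, a repellent of many axons, had 1826, 846 and 1289 normalized mRNA reads and 3119, 1732 and 2759.5 RPFs in mesoderm replicates 1, 2 and 3. Its RPFs exceeded its mRNA reads in every replicate, with a log2 TE of 0.93 ± 0.17 (SE, adjusted p = 0.000708, limma). *Sema3c*, a cue of neural crest and vessels, had 489, 373 and 572 mRNA reads and 892, 653 and 1296 RPFs. Its log2 TE was 0.92 ± 0.17 (adjusted p = 0.000853, limma), so both lay above the median by less than the 3-fold needed for a call.

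*Sema4g*, a transmembrane semaphorin, was at the other end. Its 1621, 1758 and 2007 mRNA reads came with only 238, 203 and 350.0 RPFs, and log2 TE was -2.83 ± 0.18 (adjusted p = 2.19e-06, limma). The RPFs lay far below the mRNA in each replicate. The class 6 semaphorins, transmembrane ligands that also act as receptors, were spread between. *Sema6d* had a log2 TE of -0.44 ± 0.19, which did not pass the adjustment (adjusted p = 0.0637, limma). *Sema6b* and *Sema6c*, brought in by the mesoderm list, had log2 TE of -1.38 ± 0.26 and -1.83 ± 0.23 (SD, n = 3). Set against each other, *Sema3a* and *Sema3c* exceeded each of the 4 others in all 24 differences of log2 TE within a replicate, by means of 1.35 to 3.76 in the mesoderm. The same held in all 24 differences in NT (means 1.29 to 3.22) and in FL (means 0.87 to 2.75), where the smallest single difference was 0.31. The split by class was noticed in these values and is given as a description. *Sema4g*, *Sema6b* and *Sema6c* are on the mesoderm list, which was made by TE, while *Sema3a* and *Sema3c* are not. The choice of genes therefore bears on the split. The 24 differences share genes and replicates and are not independent.

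**Figure D2:**
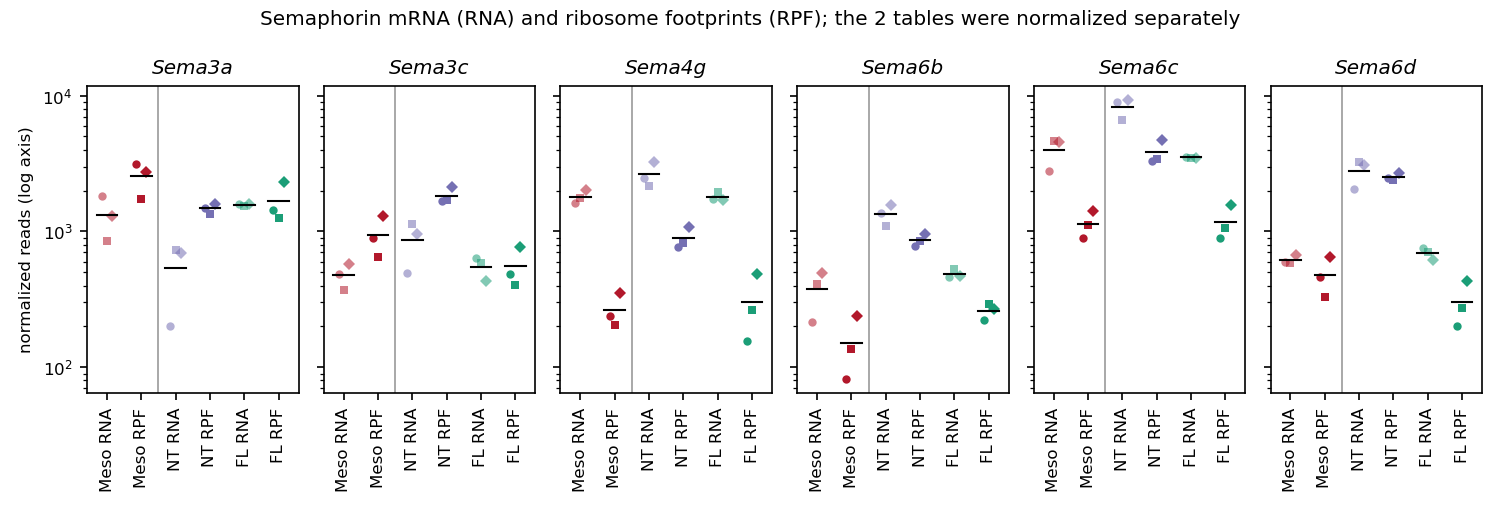
Normalized reads of the 6 semaphorins by library type and tissue on a log axis, with each replicate (symbols as circles, squares and diamonds for replicates 1 to 3) and the mean (line). RPF lies above RNA for Sema3a and Sema3c in mesoderm and NT and below RNA for Sema4g and Sema6c in all 3 tissues.

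The plexins, receptors for semaphorins, were low or moderately low. *Plxnb1*, a receptor for class 4 semaphorins, had 10246, 13384 and 10959 mRNA reads but 3264, 2464 and 3981 RPFs, a log2 TE of -1.89 ± 0.21 (adjusted p = 3.72e-05, limma). *Plxna3*, which transmits class 3 signals together with neuropilins, had 4472, 4221 and 4546 mRNA reads and 1281, 1126 and 1802 RPFs. Its log2 TE was -1.72 ± 0.18 (adjusted p = 2.49e-05, limma), and for both genes all RPF values lay below all mRNA values. *Plxna4*, another class A plexin, was at -0.67 ± 0.21 (adjusted p = 0.0155, limma), less than 3-fold from the median. *Plxnb1* and *Plxna3* are on the mesoderm list, made by TE, and *Plxna4* is not, so the choice of genes bears on this difference too.

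In the slit and netrin systems, *Robo3*, a receptor that governs midline crossing of commissural axons, had 1336, 1888 and 2281 mRNA reads and 177, 419 and 461 RPFs in the mesoderm. The mesoderm list brought it in, and its log2 TE was -2.50 ± 0.39 (SD, n = 3). *Slit1*, a ligand of Robo receptors, lay near the median at -0.16 ± 0.20 (adjusted p = 0.504, limma).

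The cadherins differed among themselves. *Celsr1*, a polarity cadherin with a receptor-like tail, had 903, 1965 and 1551 mRNA reads and 377, 475 and 605 RPFs, and a log2 TE of -1.59 ± 0.20 (adjusted p = 6.24e-05, limma). That was 3.01-fold below the median, just past the threshold, and without replicate 2 the value was -1.35, short of it. *Celsr2* was at -1.37 ± 0.19 (adjusted p = 0.000139, limma), 2.58-fold below. *Celsr3*, on the mesoderm list, was at -2.07 ± 0.62 (SD, n = 3). The Fat cadherins, very large adhesion proteins of which Fat4 acts with Dachsous in polarity and growth control, were milder. *Fat1* had a log2 TE of -0.80 ± 0.24 (adjusted p = 0.0128), *Fat3* of -1.10 ± 0.21 (adjusted p = 0.000928) and *Fat4* of -0.85 ± 0.25 (adjusted p = 0.0119, limma for all 3). Replicate 2 was the lowest for each of them, as for all Celsr genes. The Celsr genes are all on the mesoderm list, which was made by TE, and the Fat genes are not. The choice of genes therefore bears on the difference between these families.

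Among the smaller cadherins, *Pcdh7*, a protocadherin, had 769.6, 809.8 and 1076 mRNA reads and 986, 778 and 1314 RPFs, and lay at the median with a log2 TE of 0.16 ± 0.17 (adjusted p = 0.433, limma). The others came from the mesoderm list. *Cdh24*, a type II cadherin, had 3630.2, 3342 and 3669 mRNA reads and 436, 429 and 544 RPFs, a log2 TE of -2.96 ± 0.15 (SD, n = 3). *Cdh22*, also type II, was at -2.34 ± 0.97 on few reads (16, 10 and 4 recovered Ribo-Seq reads). *Cdhr4* held 4, 0 and 1 Ribo-Seq reads in the 3 libraries, against 185, 90 and 98 RNA-Seq reads, too few for its TE to be given a size. *Nlgn2*, a neuroligin of inhibitory synapses, had 3679.8, 5492 and 6689 mRNA reads and 1114, 1182 and 1917 RPFs, a log2 TE of -1.95 ± 0.26 (SD, n = 3).

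Per kilobase of counted coding sequence, *Nlgn2* had the highest mRNA level in the mesoderm, 2157 ± 618 normalized reads per kb (SD, n = 3), above *Plxnb1* at 1830.1 ± 261 by less than their spread. By RPFs the order differed. *Sema3a* led with 1123 ± 319 RPFs per kb, *Fat1* followed with 822 ± 311 and their ranges overlapped. *Cdh24* had 1552 ± 78.3 mRNA reads per kb but 206 ± 28.1 RPFs per kb.

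Next, NT and FL were compared for mRNA. More of these genes had less mRNA in FL than in NT, and a few had more. A change of at least 2-fold whose adjusted p (limma) was under 0.05 was called. 8 of 22 genes were lower in FL, where 9.49% of all genes were, and 3 were higher, where 7.82% were. Of the 10 genes brought in by the mesoderm list, 6 were lower and 0 higher (median log2 change -1.20), while 206 of 1810 genes of that list (11.4%) were lower and their median was -0.03. In bulk tissue, fewer cells that express a gene cannot be told apart from less RNA per cell. Of the neural markers, 4 of 5 were also lower in FL, *Lhx2* being the exception, and 2 of 3 limb and somite markers were higher.

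The differences were largest for *Robo3*, *Celsr2* and *Slit1*. *Robo3* mRNA was 28072, 24388 and 49613 normalized reads in NT and 365, 158 and 239.7 in FL. The 2 tissues were far apart, with a log2 change of -7.07 ± 0.62 (SE, adjusted p = 1.65e-06, limma). *Celsr2* had 39524, 29641 and 35893 mRNA reads in NT and 1888, 1515 and 1701 in FL, a change of -4.36 ± 0.29 (adjusted p = 1.35e-07, limma). *Slit1*, brought in by the NT and FL list, had 7329, 6401 and 8470.1 in NT and 185, 138 and 234 in FL, a change of -5.33. In none of the 3 did any FL library reach the lowest NT library.

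The other genes with less mRNA in FL moved less. *Celsr1* changed by -1.66 ± 0.35 (adjusted p = 0.00296), *Sema6b* by -1.45 ± 0.21 (adjusted p = 0.000143) and *Sema6c* by -1.23 ± 0.24 (adjusted p = 0.00155, limma for all 3). *Nlgn2* changed by -1.17 ± 0.32 (adjusted p = 0.0162, limma). Without replicate 1, *Celsr1* and *Nlgn2* no longer passed (adjusted p = 0.0703 and 0.0546), nor did *Nlgn2* without replicate 2 (adjusted p = 0.145). *Plxna3* (-1.11, adjusted p = 0.0621), *Plxnb1* (-0.93, adjusted p = 0.0893), *Sema4g* (-0.53, adjusted p = 0.317) and *Cdh24* (0.37, adjusted p = 0.406) did not pass the limma test.

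Of the genes from the NT and FL list, *Sema6d* also had less mRNA in FL, 759, 706 and 618 reads against 2046, 3254 and 3065 in NT, a log2 change of -1.98. 3 genes of that list had more mRNA in FL. *Sema3a* had 1596, 1530.4 and 1581 reads in FL and 199.9, 732 and 689.8 in NT, a change of 1.75, with NT replicate 1 the lowest by far. *Fat1* changed by 1.41 and *Pcdhb22*, a clustered protocadherin, by 1.14. *Fat1* was not called with the replicate number as a block. None of the 3 was called without replicate 1, where the change of *Sema3a* was 1.13. The *Pcdhb* genes are close copies of each other, and since only uniquely mapped reads were kept, their counts are uncertain.

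**Figure D3:**
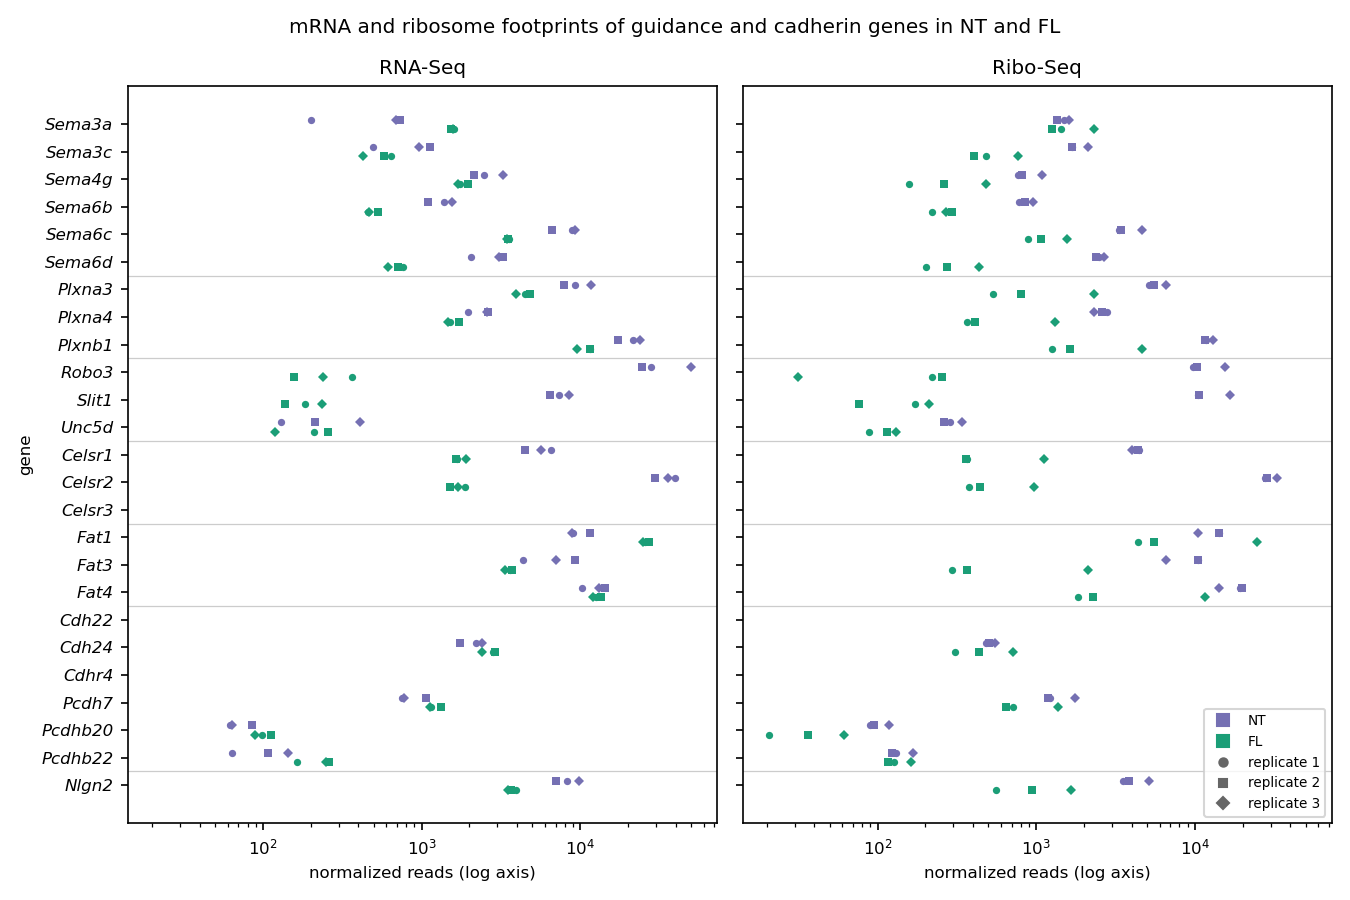
Normalized RNA-Seq reads (left) and Ribo-Seq reads (right) of each gene in NT and FL, on a log axis, with 1 symbol per replicate. FL lies below NT in all libraries for 13 genes in RNA-Seq and for 17 genes in Ribo-Seq, and the replicate 3 diamond of FL Ribo-Seq is to the right of the other 2 for 20 of 22 genes.

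All replicates of FL lay below all replicates of NT in mRNA for 13 of 22 genes (24.1% of all genes) and above them for 6 (23.3% of all genes), leaving 3 that overlapped. For RPFs with all libraries, 17 of 22 lay below (21.1% of all genes) and 0 above (21.5% of all genes), leaving 5 that overlapped. Nothing is read from the gap between mRNA and RPFs, since the NT and FL list was made by TE.

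RPFs were fewer in FL for more of these genes than mRNA was. However, 12 of the 22 came only from the NT and FL list, chosen by RPFs relative to mRNA. The choice thus bears on this gap, and nothing is read from it. By the test, 17 of 22 genes had fewer RPFs in FL, where 17.8% of all genes did, and 0 had more, where 14.9% did. Without FL Ribo-Seq replicate 3 the counts were 19 and 0, where 24.3% and 21.4% of all genes were called. Of the 10 genes from the mesoderm list, 9 had fewer RPFs (median log2 change -2.31), against 659 of 1810 genes of that list (36.4%, median -0.77). Of these 10, 9 had fewer without that library as well. *Cdh24* was the exception (-0.16 ± 0.27, adjusted p = 0.638, and -0.48, adjusted p = 0.0552, without it, limma). Among the 9, *Celsr1*, *Celsr2*, *Plxna3*, *Plxnb1* and *Sema4g* are also on the NT and FL list. Their choice thus bears on their RPF changes, and nothing is read from the count of 9.

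In NT, *Celsr2* had 27622, 28687 and 32837 RPFs, compared with 375, 446 and 966 in FL. FL lay below NT throughout, with a log2 change of -5.76 ± 0.29 (adjusted p = 1.12e-08, limma), and -6.18 without FL replicate 3. *Robo3* had 9784, 10281 and 15598 RPFs in NT, compared with 221, 256 and 31.4 in FL, a change of -6.57 ± 0.62 (adjusted p = 2.61e-06, limma). *Robo3* was the gene for which FL replicate 3 was the lowest of its group, with 0.131 of the mean of the other 2, and without it the change was -5.60. *Slit1*, from the NT and FL list, had 10515, 10594 and 16598 RPFs in NT and 172, 76.7 and 212 in FL, a change of -6.43, and -6.73 without FL replicate 3.

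The plexin receptors also had fewer RPFs in FL. *Plxnb1* had 11789, 11555 and 12967 RPFs in NT and 1257, 1645 and 4613 in FL, a log2 change of -2.51 ± 0.36 (adjusted p = 0.000119, limma). *Plxna3* had 5116, 5489 and 6554 in NT and 534, 804 and 2304 in FL, a change of -2.51 ± 0.40 (adjusted p = 0.000243, limma). FL replicate 3 was the highest FL library for both, and without it the changes were -3.07 and -3.12. *Plxna4*, from the NT and FL list, changed by -2.13, and by -2.72 without that library.

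Among the other genes from the mesoderm list, *Celsr1* changed by -3.02 ± 0.35 (adjusted p = 1.58e-05) and *Nlgn2* by -2.12 ± 0.32 (adjusted p = 0.000159, limma for both). Without FL Ribo-Seq replicate 3 these changes were -3.56 and -2.51. The semaphorins *Sema4g*, *Sema6b* and *Sema6c* changed by -1.69, -1.73 and -1.72, with adjusted p of 0.00131, 2.46e-05 and 7.27e-05 (limma). Without that library their changes were -2.10, -1.75 and -1.95. Of the genes from the NT and FL list, *Sema6d* changed by -3.11, *Sema3c* by -1.77 and *Fat3* by -3.86, against -3.41, -2.04 and -4.76 without it. *Fat3* had 297, 369 and 2129 RPFs in the FL libraries, so that replicate 3 stood far above the others. *Sema3a* had 1492, 1343 and 1603 RPFs in NT, compared with 1430.3, 1255 and 2316 in FL, and the ranges overlapped (log2 change 0.12, and -0.14 without FL replicate 3). *Fat4* had 19292, 19809 and 14212 RPFs in NT and 1836, 2293 and 11532 in FL, with mRNA of 10229, 14253 and 13138 and 12632, 13421 and 11967. Its mRNA ranges overlapped and its RPF ranges did not, with an RPF change of -2.27, and -3.10 without FL replicate 3. *Fat1* RPFs were 4398, 5522 and 24697 in FL against 14262, 14266 and 10465 in NT, so that FL replicate 3 alone made the ranges overlap. Its RPF change was -0.61 with that library and -1.38 without it.

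Last, TE itself was compared between NT and FL by the interaction of library type with tissue, and a change of at least 2-fold was called where the adjusted p was under 0.2. No gene of the 22 was called by limma, where 0.276% of all genes were called lower in FL and 0.125% higher. Of the 10 genes from the mesoderm list, 5 had an unadjusted p under 0.05 (16.9% of all genes did), 0 were called by edgeR and 2 by DESeq2, which called 2.55% of all genes lower and 5.08% higher (edgeR 0.187% and 0.16%). The 5, *Celsr1*, *Celsr2*, *Plxna3*, *Plxnb1* and *Sema4g*, are exactly those also on the NT and FL list, which was made from this contrast. The 2 called by DESeq2 are among them, so nothing is read from either count. The change in log2 TE was below 0 for 9 of these 10 genes, with a median of -1.05, and for 77.7% of the 1810 genes of that list, with a median of -0.70.

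*Celsr2* changed by -1.41 ± 0.41 (SE, adjusted p = 0.291, limma), *Plxnb1* by -1.58 ± 0.51 (adjusted p = 0.291) and *Plxna3* by -1.40 ± 0.56 (adjusted p = 0.291). *Celsr1* changed by -1.36 ± 0.49 (adjusted p = 0.291) and *Sema4g* by -1.16 ± 0.47 (adjusted p = 0.291, limma). All 5 failed the adjustment over all genes. With the replicate number as a block no gene of the 22 was called either, and the calls over all genes went from 45 to 6. They went to 4 with a block for the pair of libraries of each tissue and number, a fit added after seeing the data. Without FL Ribo-Seq replicate 3, limma called 6 of the 10 lower and 1 higher, with 19.8% and 16.5% of all genes called. In that fit *Celsr2* changed by -1.82 (adjusted p = 0.000428), *Plxnb1* by -2.14 (adjusted p = 0.000294) and *Celsr1* by -1.90 (adjusted p = 0.000428, limma). All of the 6 but *Nlgn2* (-1.35, adjusted p = 0.00573, limma) are on the NT and FL list, which was made from this contrast. Nothing is therefore read from the count of 6 or from the p-values of genes on that list. The gene called higher was *Robo3*, whose change was 0.50 ± 0.88 with all libraries (adjusted p = 0.726) and 1.47 without that library (adjusted p = 0.0254, limma). *Sema6b* was at -0.27 with it and -0.30 without it. Without replicate 3 of every group, limma called 22.3% of all genes lower and 20.7% higher.

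The 12 genes from the NT and FL list were chosen from this contrast, and their values are a description. Each had a negative change, from -1.10 for *Slit1* to -2.97 for *Fat3*, and without FL Ribo-Seq replicate 3 from -1.27 for *Unc5d* to -3.86 for *Fat3*. The Fat cadherins had the 3 largest values. *Fat3* had a log2 TE of 1.24, 0.14 and -0.13 in NT replicates 1, 2 and 3 and of -3.59, -3.32 and -0.65 in FL. *Fat4* had 0.89, 0.45 and 0.08 in NT and -2.79, -2.55 and -0.06 in FL, and *Fat1* had 0.64, 0.27 and 0.21 and -2.54, -2.29 and -0.02. In each case FL replicates 1 and 2 lay far below NT while replicate 3 lay close to it. For these 3 genes the RPFs of FL replicate 3 were 4.98 to 6.4 times the mean of replicates 1 and 2.

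**Figure D4:**
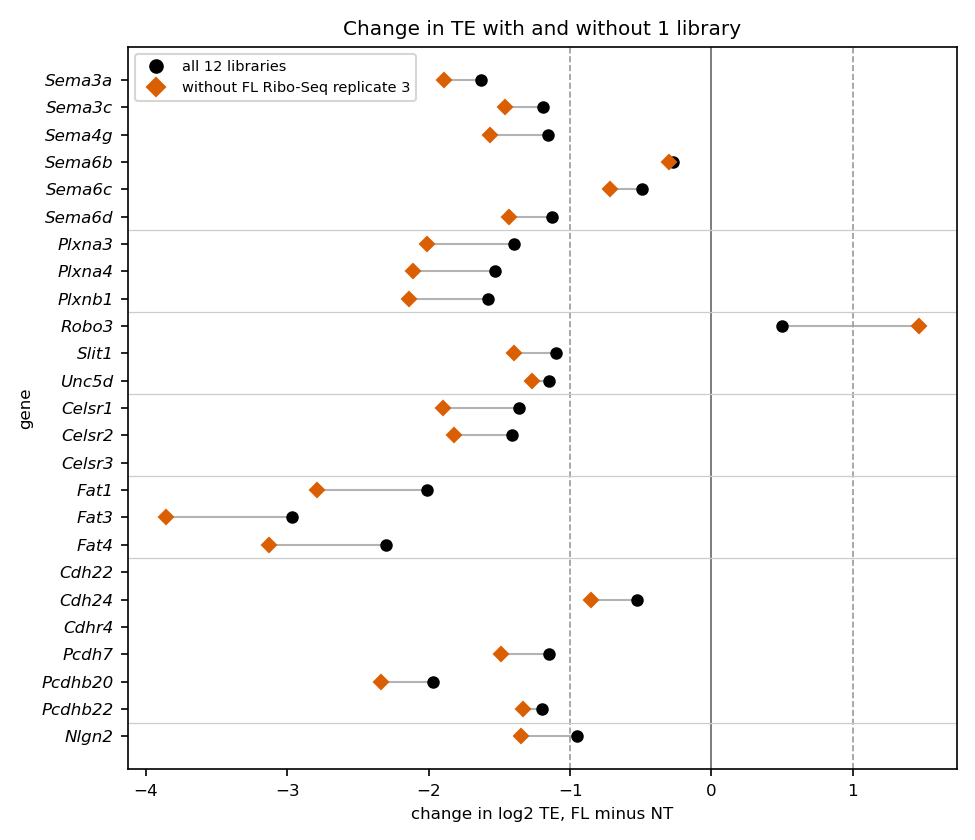
Change in log2 TE from NT to FL for the 22 genes in the table, with all 12 libraries (circles) and without FL Ribo-Seq replicate 3 (diamonds); dashed lines mark 2-fold. All genes but Robo3 lie left of 0 with either set, and leaving out the library moves the Fat cadherins the furthest to the left.

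Within FL, 11 of 22 genes were TE-low, where 13.4% of all genes were, and 0 were TE-high (6.25% of all genes). Of the 10 genes from the mesoderm list, 8 were TE-low, as were 66.1% of the genes of that list. Their log2 TE ran from -2.72 ± 0.33 for *Sema4g* (adjusted p = 9.89e-05, limma) and -2.56 ± 0.27 for *Cdh24* (adjusted p = 4.6e-05, limma) to -1.62 ± 0.24 for *Sema6c* (adjusted p = 0.00025, limma). The others were *Sema6b* at -0.90 ± 0.21 (adjusted p = 0.00299) and *Robo3* at -0.98 ± 0.62 (adjusted p = 0.189, limma), neither past 3-fold. Without FL Ribo-Seq replicate 3, log2 TE was -3.14 for *Sema4g*, -2.89 for *Cdh24*, -1.85 for *Sema6c*, -0.93 for *Sema6b* and -0.02 for *Robo3*. Without FL Ribo-Seq replicate 3, 13 of the 22 genes and 8 of the 10 were TE-low, where 18.1% of all genes were (12.6% TE-high). Without replicate 1 of every group, 4 of the 10 were, with *Celsr1*, *Celsr2*, *Nlgn2* and *Sema6c* at -1.48, -1.30, -1.54 and -1.44. By edgeR and by DESeq2 6 of the 10 were TE-low, with *Celsr1* at -1.51 and -1.54 and *Celsr2* at -1.53 and -1.55, short of 3-fold. Of the genes from the NT and FL list, *Fat1*, *Fat3* and *Fat4* were TE-low with all libraries but not without replicate 1 (-1.16, -1.99 and -1.31).

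Within NT, 2 of 22 genes were TE-low, where 4.13% of all genes were, and 1 was TE-high (0.436% of all genes). Both TE-low genes came from the mesoderm list, in which 21.8% were TE-low in NT. *Cdh24* was at -2.06 ± 0.27 (adjusted p = 0.000311, limma) and *Sema4g* at -1.59 ± 0.33 (adjusted p = 0.00493, limma), the latter 3.01-fold below the median. *Sema4g* was no longer called with any replicate number left out (-1.53, -1.68 and -1.58 without replicates 1, 2 and 3). The gene called TE-high was *Sema3a*, from the NT and FL list, with 2.86, 0.84 and 1.19 in the 3 replicates, of which replicate 1 lay furthest out, and its value was 1.00 without that replicate. *Celsr1* (-0.39, adjusted p = 0.429) and *Celsr2* (-0.26, adjusted p = 0.53) did not differ from the median of all genes in NT by the limma test. *Cdh24* and *Sema4g* were TE-low in each of the 3 tissues with all libraries. Both are on the mesoderm list, and *Sema4g* is also on the NT and FL list.

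Genes that work with these families were listed as well, and 26 of them were found in each table, not the same 26. Their identifiers come from the same lists, so their values are given with no p-value. In the mesoderm, 11 of 26 were TE-low and 2 TE-high, where 10.9% and 1.17% of all genes were. Nothing is read from the gap, since the lists were made by TE. Of the 9 guidance cues and receptors there, *Epha8* (-1.71 ± 0.22, SE) and *Rgmb* (-1.60 ± 0.17) were TE-low, and *Cxcr4*, a chemokine receptor, was TE-high (1.62 ± 0.17). Of the 8 intracellular effectors, 5 were TE-low, led by the transcription factor *Nfatc4* (-3.05 ± 0.32) and by *Arhgef11* (-2.09 ± 0.18), an exchange factor that plexin-B receptors engage. Of the 9 adhesion and polarity partners, 4 were TE-low, led by the synaptic scaffold *Dlg4* (-2.43 ± 0.17) and the polarity protein *Dvl1* (-2.39 ± 0.18), and *Ncam1*, an adhesion molecule of neurons, was TE-high (1.61 ± 0.17).

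Between NT and FL, mRNA of 10 of 26 partners was lower in FL and that of 2 was higher, where 9.49% and 7.82% of all genes were. The guidance receptors *Dcc*, for netrin (-4.14 ± 0.34), and *Cxcr4* (-3.19 ± 0.21) and the adhesion molecule *Chl1* (-4.28 ± 0.51) were lower, while the receptor *Met* (1.58 ± 0.33) and the teneurin *Tenm4* (1.45 ± 0.43) were higher. With all libraries, RPFs of 20 of 26 were fewer in FL and those of 0 were more (17.8% and 14.9% of all genes), and the TE change was called for 0 of 26 by limma. These partner counts are not given without FL Ribo-Seq replicate 3, on which calls of the TE change depended strongly.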

How the data were processed

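Ribo-Seq and RNA-Seq of E11.5 mesoderm, NT and FL were measured in 3 replicates each. The authors deposited signal values, that is, read counts scaled by the library sizes that DESeq estimates, in separately normalized tables for mesoderm and for NT and FL. Before that, the authors removed adapters with cutadapt, discarded rRNA, tRNA and snRNA reads, aligned the rest to canonical UCSC known genes (mm10), kept unique reads and counted those on coding sequence, skipping 15 codons after the start and 5 before the stop. All values of every library were whole multiples of a fixed step (tolerance 0.01 reads), from which reads were recovered.

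Models in limma 3.58.1 under R 4.3.3 took log2 of normalized reads plus a pseudocount of 1, within a table and over all its genes, with Benjamini-Hochberg adjustment. In the mesoderm, TE was the Ribo-Seq over RNA-Seq coefficient in a model with a term for replicate, which the study also used, since sorted cells were divided between both libraries. Deviations of same-numbered libraries had r = 0.74, 0.58 and 0.57. NT and FL were fitted together without a block, after the study's model, although they came from the same embryos. TE was centred on its median over genes. Adding 1 understates changes of genes with few reads. Alternatives were pseudocounts of 0.1 and 8, a minimum mean of 100 normalized reads, edgeR 4.0.16 and DESeq2 1.42.0 on recovered reads, other thresholds, the block, centring and leaving out each replicate. Leaving out FL Ribo-Seq replicate 3, and a block for each tissue and number, were added after seeing the data. The models were also run on simulated data. No simulated library deviated as FL Ribo-Seq replicate 3 did, so that run does not test the calls that depend on it.

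The members and gene lists were chosen with earlier results of these data known. Supplementary tables of the study, at hand only in part, paired identifiers with symbols, and their fold changes and p-values were not used. All members are described, and the partner genes named were called and among the 4 largest of their list and comparison. Lengths and start codon contexts came from GENCODE M21 (GRCm38), and levels per kb use its longest CDS less the skipped codons. Replicates of every group differed by more than sampling noise, and p-values measure the spread between these 3 replicates.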

Additional observations from a re-analysis of the deposited data

Results flagged for a closer look

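For 5 genes, log2 TE lay above the median of all genes in every NT replicate and below it in every FL replicate. The change from NT to FL was -2.01 for *Fat1*, -2.30 for *Fat4*, -1.97 for *Pcdhb20*, -1.20 for *Pcdhb22* and -1.10 for *Slit1*. The same split was found in 82 of 11231 genes (0.73%) and the opposite one in 117 (1.04%). The difference was not tested for these genes, since the list that brought them in was made from this contrast. In FL replicate 3, *Fat1* and *Fat4* lay just below the median, at -0.02 and -0.06.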

How the results depend on the processing

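No value of a member changed sign past a threshold under any alternative run. Of 1379 member values recomputed, 1277 kept their side of the threshold, 55 passed it newly and 47 lost it. The TE change from NT to FL depended most on the libraries: limma called 45 genes and no member, DESeq2 856 genes and 8 members lower, and without FL Ribo-Seq replicate 3 (chosen after seeing the data) 4072 genes, 18 members lower and 1 higher. With a replicate number left out, the range was 0 to 4834 genes, 0 to 18 members lower and 0 to 1 higher, the upper ends being without replicate 3. At an adjusted p under 0.05 it was 4 genes.

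Both dissected tissues were taken from shared embryos, but whether equal numbers mark them is not given, and the libraries did not deviate together by number (correlations from -0.58 to 0.09 between tissues and from -0.28 to 0.35 between library types). With the replicate number as a block, 6 genes changed in TE, and 1853 in mRNA, 3470 in RPFs, 480 in NT and 2195 in FL. *Fat1* mRNA was then no longer called, and no other call of a member changed. With a block for each tissue and number (chosen after seeing the data), 4 genes changed in TE, with 512 called in NT and 2208 in FL, and no call of a member changed. Without the block, 1428 genes were called by TE in the mesoderm, against 1458 with it.

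Without one replicate number, mRNA calls among members ranged from 6 to 8 lower and 0 to 3 higher, and over all genes from 1173 to 1990 against 1944. Over all genes, RPF calls ranged from 1686 to 5636 against 3678. For TE in NT, 1 member was lower and 0 to 1 higher, with 299 to 431 genes against 513. For TE in FL, 4 to 14 members were lower, with 1230 to 3445 genes against 2204 (3451 without FL Ribo-Seq replicate 3). With edgeR and with DESeq2, 7 members were lower in FL and 0 higher in NT. With a pseudocount of 8, 1 member was lower in NT. At 2-fold in place of 3-fold, 4 were lower and 2 higher in NT, with 1741 genes, and 4179 genes were called in the mesoderm and 4709 in FL. The causes were not tested. Depth limits *Cdhr4* and *Cdh22* in the mesoderm and *Pcdhb20* and *Unc5d* in FL, which had the fewest Ribo-Seq reads.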
